A study of Mus musculus with 45 samples.

Results

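Gene expression in the spleens of mice with 4T1 tumors was compared with that in the spleens of mice with 67NR tumors. The comparison was chosen by the tissue and tumor line on the labels and held 6 of the 45 samples of the series, 3 spleens for each line. The mice were female Balb/c animals that received 2000000 67NR or 4T1 cells into the mammary site, and the spleens were taken on day 14. Both lines are triple negative mammary cancer lines derived from a spontaneous tumor of a BALB/cfC3H mouse, and each is a subline of its own. 67NR cells form tumors that do not leave the primary site, whereas 4T1 cells spread to lung and other organs. Spleens of 3 healthy control mice and of 3 mice with tumors of the 4T07 line, which invades but does not form overt metastases, entered the same model and are given as reference values. Mice in the study carried a subcutaneous polymer scaffold, a porous implant that recruits immune cells. RNA came from homogenised spleen, so no cell type was sorted. The labels do not tie a spleen to a lung or a scaffold of the same mouse and give no culture or litter, and p-values measure the spread between these samples.

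The spleen filters blood in its red pulp, holds B and T lymphocytes in its white pulp, and in adult mice keeps a capacity to form granulocytes, platelets and red cells outside the bone marrow. Granulocyte precursors make their granule proteins in sequence. Myeloperoxidase and the neutrophil serine proteases are made first and stored in primary granules, lactoferrin and lipocalin 2 follow in secondary granules, gelatinase in tertiary granules, and surface receptors such as Cxcr2 come last. Colony-stimulating factors drive this sequence, G-CSF through Csf3r and GM-CSF through Csf2ra and Csf2rb. The 4T1 tumor is known for a large expansion of granulocytic cells in blood and spleen.

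The 6 libraries held between 3914562 and 4775938 counts, and 18477 gene symbols had more than 10 counts over them. Levels are given as normalised CPM, the counts per 1000000 of a library size scaled by edgeR's TMM factor. These factors were 0.864 to 0.921 in the 4T1 and 1.12 to 1.14 in the 67NR spleens. On library totals alone the median log2 ratio of 4T1 to 67NR over all genes was -0.34, and on the scaled sizes it was -0.04. A log2 fold change is given with its standard error (SE), and its adjusted p comes from edgeR's quasi-likelihood F test with Benjamini-Hochberg adjustment over all genes tested. A gene was called, and is said to have risen or fallen in 4T1, at an adjusted p under 0.10 with a fold change over 2. For single values, an exact permutation test of 3 against 3 samples cannot give a two-sided p under 0.1. The smallest level that a library can show was taken as 3 counts, a mean of 0.799 normalised CPM in 4T1 and 0.608 in 67NR spleens. Such limits and the ratio intervals below cover counting error only.

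All 6 libraries carried markers of the spleen. Tlx1, a transcription factor of splenic stroma, lay between 11.0 and 55.8 counts per 1000000 of library totals, and Spic, a transcription factor of red pulp macrophages, between 34.8 and 125. In the lungs Tlx1 was at 0.324 to 14.6 and Spic at 0.989 to 34.9, so the highest lung values overlapped those of the spleens. The part of such transcripts in the comparison with lungs was not tested. The lung surfactant gene Sftpc was at 1.47 to 8.07 in the spleens and at 1798 to 13286 in the lungs. Cd79a, a defining B cell gene, was low in all 6 spleens, at 4.55 to 10.1. The 4T1 spleens also carried transcripts of the exocrine pancreas, which lies against the spleen. Of the 15 genes in that list, 14 were tested and all 14 rose, with a median log2 fold change of 9.50, or 7.85 with 11 of them set at their lower bound. The summed level of the list was 433, 613 and 6424 normalised CPM in 4T1 libraries 40, 41 and 42 and 37.4 to 74.5 in the 67NR spleens, where most of it was Cela1, at 35.6 to 68.2. Ctrb1, Reg1, Sycn and Pnliprp2 had no counts in any 67NR spleen and were at least 315-fold, 131-fold, 70.8-fold and 39.0-fold higher in 4T1. Without library 42 these limits were 55.9-fold, 20.2-fold, 11.0-fold and 8.34-fold. Pancreatic transcripts were not limited to 4T1 mice, since the sum reached 1166 in a control spleen and 776 in a 4T07 spleen. Without library 42, 12 of 13 tested genes of the list rose with a median of 7.38, and in DESeq2 10 of 14 were called. Over the 12 spleens, 43 genes tested followed the pancreas sum (Pearson's r of at least 0.8), 37 of them called and all higher in 4T1. Members of the list are among them and make up the sum that they follow. The sum was higher in every 4T1 than in every 67NR spleen, so the direction of these genes is no separate result. The mature neutrophil sum was 13218 to 33310 normalised CPM in the 4T1 and 1078 to 1260 in the 67NR spleens. Its relation to the pancreas sum was not tested.

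**Figure D1:**
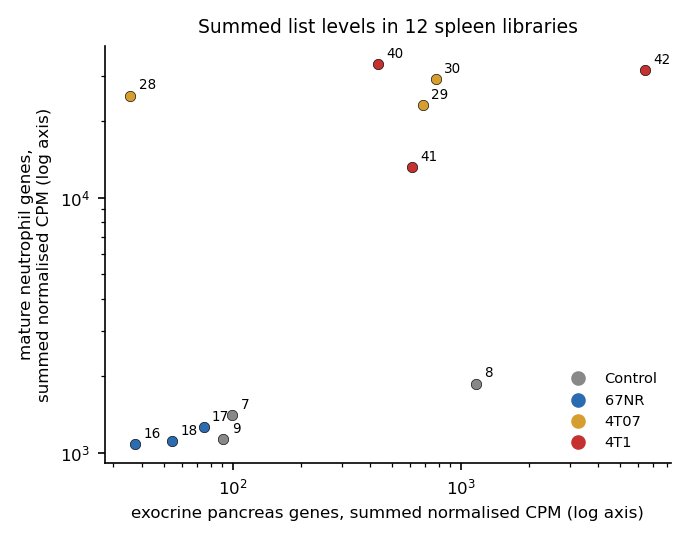
Summed normalised CPM of the exocrine pancreas list (horizontal, log axis) against that of the mature neutrophil list (vertical, log axis) in the 12 spleens, 1 point per library with its number, colored by tumor line. The 67NR spleens lie at 1078 to 1260 on the neutrophil axis and the 4T1 spleens at 13218 to 33310, while the pancreas sum of 4T1 library 42 stands apart at 6424.

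Of the 18477 genes, 4204 were called (22.8%), 2095 higher (11.3%) and 2109 lower (11.4%) in the 4T1 spleens. Counts of called genes in the lists are to be read beside these shares. In 9083 genes (49.2%) all spleens of 1 line lay above all of the other, and 3907 of these were called. When libraries were scaled by their totals alone, 4977 genes were called, 1205 higher and 3772 lower, so the share of called genes that were higher was 24.2% instead of 49.8%. Directions of small changes below are therefore given relative to the scaled library sizes. In bulk tissue, fewer cells of a type and less RNA per cell cannot be told apart.

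**Figure D2:**
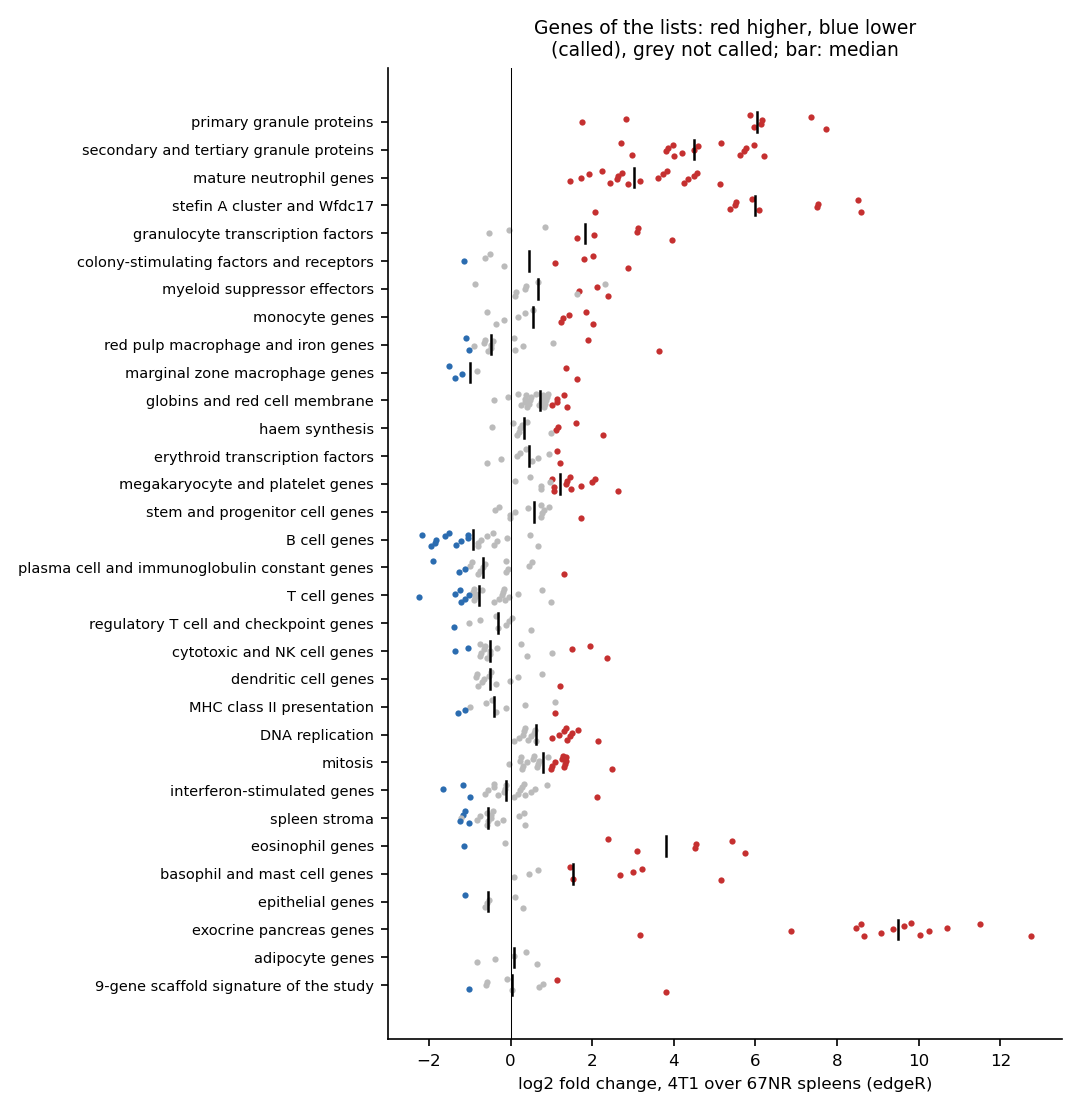
Log2 fold change of 4T1 over 67NR spleens (horizontal, edgeR) for each tested gene of the 32 lists (rows). Red points were called higher, blue points called lower, grey points were not called, and the black bar is the median of the list, 6.05 for primary granule proteins, -0.92 for B cell genes and 9.50 for the exocrine pancreas.

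Genes of granule proteins had higher levels in 4T1 spleens from the earliest to the latest granule. All 8 tested genes of the primary granule list rose, with a median log2 fold change of 6.05. All 15 of the secondary and tertiary granule list rose, with a median of 4.51 (4.20 with Itgb2l, at or under 3 counts in every 67NR spleen, set at its bound). Ctsg, the serine protease cathepsin G, was at 828, 221 and 628 normalised CPM in the 4T1 and at 3.18, 2.69 and 1.96 in the 67NR spleens, a log2 fold change of 7.72 (SE 0.48, adjusted p = 1.88e-07). Prtn3, proteinase 3, was at 796, 319 and 1150 against 5.24, 5.84 and 2.75. Mpo, myeloperoxidase, was at 1092, 406 and 1034 against 12.4, 17.1 and 14.1, with a log2 fold change of 5.86 (SE 0.38). In each of these genes the lowest 4T1 spleen, library 41, still lay more than 10 times above the highest 67NR spleen. Elane (5.97), Prss57 (6.16), Ms4a3 (6.13), Cst7 (2.83) and Serpinb1a (1.76), an inhibitor of these proteases, completed the primary granule list by their log2 fold changes. The list is thus not limited to stored granule enzymes. The control spleens were at 1.80 to 4.18 normalised CPM for Ctsg and 7.81 to 14.9 for Mpo, below the 4T1 spleens in both. The summed level of the list was 2445 to 2977 in the 4T07 and 1383 to 3892 in the 4T1 spleens.

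Among secondary granule genes, Lcn2, which encodes the iron carrier lipocalin 2, was at 647, 191 and 581 normalised CPM in 4T1 and at 9.36, 9.88 and 7.47 in 67NR spleens, a log2 fold change of 5.73 (SE 0.41, adjusted p = 3.59e-07). Ltf, lactoferrin, was at 546, 155 and 546 against 8.05, 7.41 and 9.82. Ngp, neutrophilic granule protein, was at 2504, 726 and 2392 against 44.9, 50.5 and 61.5. Camp, the cathelicidin precursor, had a log2 fold change of 5.96 (SE 0.61) and Cd177 one of 6.21 (SE 0.55). The tertiary granule gene Mmp9, gelatinase B, changed less, by 3.81 (SE 0.29), and Mmp8, the neutrophil collagenase, by 2.98 (SE 0.26). The smallest increase in this list was that of Pglyrp1, at 2.71. In all 23 genes of the granule lists the 3 libraries of 4T1 did not overlap those of 67NR, as in 49.2% of all genes tested. The summed level of the secondary and tertiary list was 7555 to 9091 in the 4T07 and 2413 to 7495 in the 4T1 spleens.

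The promoters of the granule genes Ctsg and Lcn2 are shown as an example of each granule stage. Each had the smallest adjusted p of its list, a value that Ctsg shared with Mpo. Each is the run of 250 bases before the RefSeq start site, in the direction of the gene, in GRCm38.p6. That of Ctsg lies on the minus strand at chr14:56102575-56102824 and that of Lcn2 on the minus strand at chr2:32387740-32387989. Capitals mark matches on either strand to CACCC, the box bound by Klf factors, or AGATAA, a site of GATA factors. The promoters were searched for those letters because GATA1 and KLF1 are the leading factors of red cell genes, described below.
Ctsg: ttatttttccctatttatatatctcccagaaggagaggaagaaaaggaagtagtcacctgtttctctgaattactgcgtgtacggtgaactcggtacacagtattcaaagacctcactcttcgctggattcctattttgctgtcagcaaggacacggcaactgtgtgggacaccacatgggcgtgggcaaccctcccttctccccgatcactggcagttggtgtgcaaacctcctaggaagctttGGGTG
Lcn2: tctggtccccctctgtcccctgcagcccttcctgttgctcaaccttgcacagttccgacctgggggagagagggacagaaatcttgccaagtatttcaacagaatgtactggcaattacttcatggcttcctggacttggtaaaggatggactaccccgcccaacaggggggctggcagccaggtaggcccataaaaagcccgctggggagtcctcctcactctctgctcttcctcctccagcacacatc
Ctsg had a CACCC on the reverse strand 5 bases before the start, and the Lcn2 window held neither motif. Over the 32851 promoters of the RefSeq table, 52% held CACCC and 9.99% held AGATAA. Of 6 primary granule promoters in the table, 6 held CACCC and 0 held AGATAA, and of 13 secondary and tertiary ones, 7 held CACCC and 3 held AGATAA. These are descriptions of letters in a window, not of binding.

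Genes that mark mature neutrophils rose in 18 of 18 cases, with a median log2 fold change of 3.02. S100a8, a calcium-binding alarmin of neutrophils, was at 20079, 7633 and 20428 normalised CPM in 4T1 and at 406, 536 and 437 in 67NR spleens, a log2 fold change of 5.12 (SE 0.38, adjusted p = 4.25e-07). Its partner S100a9 was at 10713, 4129 and 8820 against 356, 429 and 388. Ly6g, the surface antigen used to gate mouse neutrophils, was at 345, 108 and 333 against 9.74, 13.0 and 12.0. For these genes library 41 was the lowest of the 4T1 spleens. Il1b, interleukin 1 beta, did not follow that order and was at 222, 238 and 199 against 32.4, 38.6 and 36.0, a log2 fold change of 2.62 (SE 0.15, adjusted p = 1.19e-07). Cxcr2, the receptor with which neutrophils leave the marrow, was at 182, 122 and 161 against 19.7, 20.0 and 12.4. Retnlg (4.56), Trem1 (4.24), Clec4e (3.84) and Fpr2 (3.74) were among the larger increases by log2 fold change, and Mxd1 (1.73) and Slpi (1.45) were the smallest. Il1b and Cxcr2 were at 50.7 to 53.3 and 50.9 to 61.7 in the 4T07 spleens, below all 4T1 spleens, whereas Ly6g was at 339 to 549 there. 4T1 and 4T07 spleens were not tested against each other here.

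**Figure D3:**
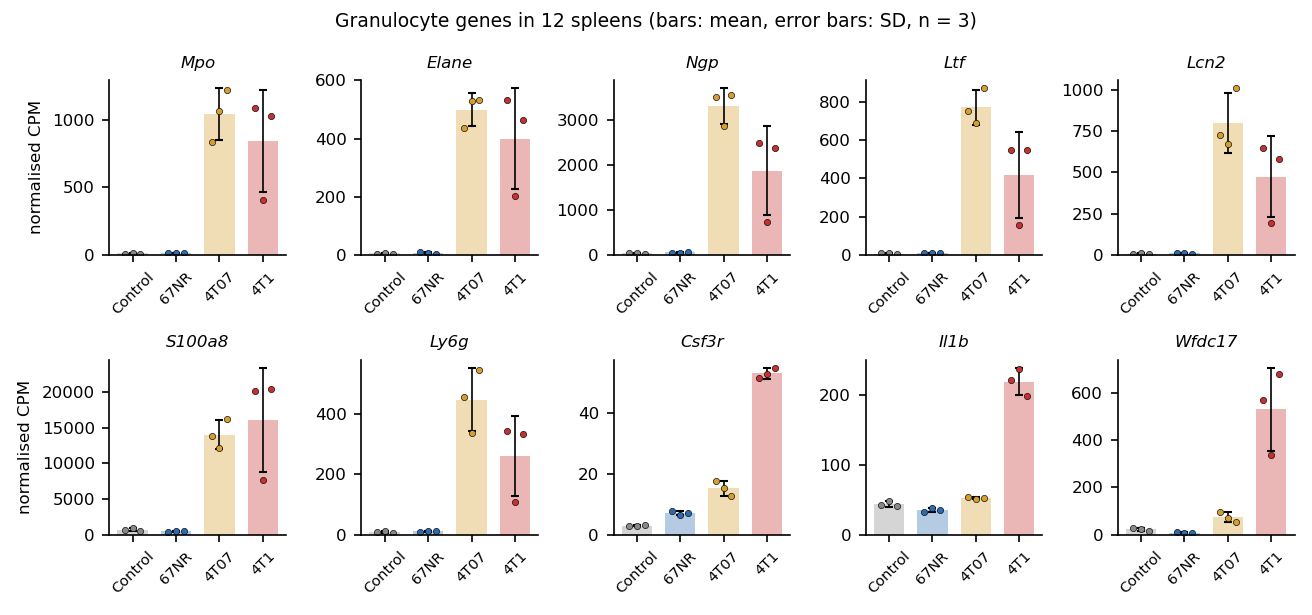
Normalised CPM (vertical, linear axis from 0) of 10 granulocyte genes in control, 67NR, 4T07 and 4T1 spleens, with points for libraries, bars for means and error bars for SD (n = 3). For Mpo, Elane, Ngp, Ltf, Lcn2, S100a8 and Ly6g 4T1 library 41 lies below the other two, and for Csf3r the 4T1 spleens lie close together at 51.2 to 54.6.

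The stefin A gene cluster, which encodes small cysteine protease inhibitors abundant in granulocytes, had higher levels in 4T1 spleens. All 10 tested genes of the list of stefins and Wfdc17 rose, with a median log2 fold change of 5.99 (5.71 with 3 genes at or under 3 counts in every 67NR spleen set at their bound). Stfa2 was at 196, 55.6 and 145 normalised CPM in 4T1 and at 0.562, 0.449 and 0 in 67NR spleens, the latter at or under 3 counts. Cstdc5 was at 955, 322 and 491 against 3.18, 4.04 and 2.36, and Cstdc4 at 211, 68.6 and 164 against 2.06, 3.37 and 1.96. Cstdc6 and Stfa1 had no counts in 67NR spleens and were at least 17.3-fold and 2.05-fold higher in 4T1, limits that were 7.26-fold for Cstdc6 without 4T1 library 42 and 1.09-fold for Stfa1 without 4T1 library 40. Stefin genes are near-identical copies, and how reads shared between them were counted is not given in the sources used here, so the split between members is uncertain. Wfdc17, a secreted protein of activated myeloid cells, was at 568, 337 and 680 against 8.99, 6.73 and 7.66, with a log2 fold change of 6.07 (SE 0.33, adjusted p = 6.08e-08). It was at 52.6 to 95.3 in the 4T07 and at 16.2 to 25.9 in the control spleens, so its 67NR levels lay below those of control mice.

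Of 8 transcription factors of granulocytes, 5 rose and none fell, with a median log2 fold change of 1.83. Cebpe, needed for secondary granules, was at 52.3, 22.1 and 39.5 normalised CPM in 4T1 and at 2.81, 3.59 and 0.982 in 67NR spleens. Its log2 fold change was 3.95 (SE 0.39, adjusted p = 5.66e-06). Cebpd (3.11, SE 0.29), Gfi1 (3.09, SE 0.42), Cebpb (2.04, SE 0.24) and Spi1 (1.62, SE 0.20) also rose. Cebpa, the factor that commits progenitors to this lineage, was at 31.6, 25.5 and 26.0 against 15.5, 20.2 and 11.0, a log2 fold change of 0.83 (SE 0.21) that did not reach a fold of 2. Irf8, which directs progenitors to monocytes and dendritic cells, had a log2 fold change of -0.53 (SE 0.16, adjusted p = 0.018), also under a fold of 2.

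Of the receptors of the colony-stimulating factors, those of G-CSF and GM-CSF rose. Of 8 tested genes of factors and receptors, 4 rose and 1 fell, with a median log2 fold change of 0.46. Csf3r, the G-CSF receptor, was at 51.2, 52.7 and 54.6 normalised CPM in 4T1 and at 7.86, 6.51 and 7.07 in 67NR spleens, a log2 fold change of 2.88 (SE 0.18, adjusted p = 1.88e-07). Csf2rb, the common beta chain of the GM-CSF, IL-3 and IL-5 receptors, was at 94.1, 72.6 and 89.0 against 17.4, 24.7 and 21.4, and its paralog Csf2rb2 at 21.4, 11.4 and 17.0 against 3.93, 5.39 and 5.11. Csf2ra, the GM-CSF receptor alpha chain, was at 108, 119 and 126 against 56.0, 64.6 and 46.2, a log2 fold change of 1.08 (SE 0.20) that was 0.95, under a fold of 2, without 67NR library 18, and 0.74 on library totals alone. Csf1r, the receptor of macrophages, was at 262, 332 and 229 against 303, 346 and 272 and was not called. Il34, a second ligand of Csf1r, fell from 27.7, 29.6 and 21.2 to 11.3, 17.0 and 7.42 (log2 fold change -1.13, SE 0.29), a call that was lost without 4T1 library 42, at -0.88. The ligands Csf2, Csf3 and Il3 had 1, 0 and 0 counts over the 6 spleens and were not detectable at this depth. Csf1 was at 15.8, 26.6 and 18.8 against 37.1, 24.7 and 25.1 and Il3ra at 4.56, 3.99 and 4.24 against 5.62, 7.18 and 6.88, and neither was called.

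Of the 14 genes listed for the means by which myeloid cells restrain T cells, 11 were tested, 3 rose and none fell. Their median log2 fold change was 0.68 (0.55 with 3 genes set at their bound). Arg1, arginase 1, was at 0, 1.33 and 3.97 normalised CPM in 4T1 and at 0.562, 0 and 0.393 in 67NR spleens (adjusted p = 0.117). Nos2, inducible nitric oxide synthase, had 13 counts over the 4T1 and 3 over the 67NR spleens, a ratio of 5.73 (95% exact interval 1.57 to 31.3, counting error only), and its call (adjusted p = 0.0777) was lost without 4T1 library 42, without 67NR library 17 or 18, in DESeq2 and on library totals alone. Arg2, Ptgs2 and Ido1 had 9, 5 and 1 counts over the 6 spleens and were not tested. The members that rose at readable levels were subunits of the phagocyte NADPH oxidase, Ncf4 at 170, 85.7 and 141 against 26.6, 27.8 and 37.3 (log2 fold change 2.11, SE 0.23) and Ncf1 (1.68, SE 0.22). Cybb, the membrane subunit of the same enzyme, was at 584, 348 and 496 against 455, 432 and 408 and was not called. Cd274, the PD-L1 gene, was at 5.63, 5.85 and 5.03 against 12.2, 11.9 and 6.29, a log2 fold change of -0.87 under a fold of 2.

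Of 8 eosinophil genes 6 rose and 1 fell, with a median log2 fold change of 3.81. Their summed level was 505 to 1422 normalised CPM in the 4T1 and 1569 to 2192 in the 4T07 spleens. Prg2, the major basic protein of eosinophil granules, was at 1105, 344 and 644 normalised CPM in 4T1 and at 31.6, 32.8 and 25.3 in 67NR spleens (log2 fold change 4.54, SE 0.41, adjusted p = 2.17e-06). Epx, eosinophil peroxidase, was at 79.3, 32.7 and 52.2 against 2.25, 3.82 and 1.18. Ccr3, the eotaxin receptor, was at 59.8, 72.4 and 50.1 against 68.0, 68.0 and 62.9 and was not called. Il5ra, the IL-5 receptor, fell from 9.36, 10.3 and 9.23 to 2.95, 5.32 and 4.77 (log2 fold change -1.14, SE 0.25), a call that was lost without 4T1 library 40. Of 9 basophil and mast cell genes 6 rose and none fell, with a median of 1.54. The summed level of these genes was 182 to 301 in the 4T1 and 267 to 329 in the 4T07 spleens. The basophil proteases Prss34 (log2 fold change 5.16, SE 0.43) and Mcpt8 (3.00, SE 0.43) and the histidine decarboxylase gene Hdc (3.21, SE 0.23) led this list, and the connective tissue mast cell proteases Cma1 and Mcpt4 were at 0.374 to 2.39 in all 6 spleens and were not called.

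Of 11 monocyte genes 5 rose, or 3 on library totals alone, and none fell, with a median log2 fold change of 0.55. Ly6c1 was at 106, 75.6 and 138 normalised CPM in 4T1 and at 24.3, 24.0 and 29.9 in 67NR spleens (log2 fold change 2.03, SE 0.35). It ranged from 32.7 to 83.0 among the control spleens, above all 67NR spleens and overlapping the 4T1 spleens. F13a1 (1.86, SE 0.22), the factor XIII subunit, and Ccr2 (1.43, SE 0.21), the receptor with which monocytes leave the marrow, rose as well. Cx3cr1, the receptor of patrolling monocytes, was at 54.1, 82.7 and 53.8 against 80.1, 115 and 87.6, under a fold of 2. In the red pulp list, 2 of 15 genes rose and 2 fell, with a median of -0.48. These counts are close to the shares over all genes, 11.3% higher and 11.4% lower. Spic fell from 98.7, 81.5 and 110 to 38.9, 51.9 and 44.2 (log2 fold change -1.10, SE 0.19, adjusted p = 5.61e-04), and the complement gene C1qa fell by 1.03 on the log2 scale. The number of genes of this list that fell was 1 without 4T1 library 40, without 4T1 library 42 or without 67NR library 17. The genes that rose were those of ferritin. Fth1 was at 1341, 1137 and 1749 against 395, 316 and 428, and Ftl1 at 53.3, 82.2 and 267 against 11.4, 8.75 and 12.2. Ftl1 has near-identical copies and varied from 11.0 to 83.0 among the control spleens, wider than the 67NR spleens. Of 6 marginal zone macrophage genes 3 fell and 2 rose, and the median lay midway between the log2 fold changes of Siglec1, the sialoadhesin gene, which was not called (-0.82), and Timd4 (-1.18). Marco, a scavenger receptor of these cells, fell from 324, 310 and 363 to 96.5, 179 and 113 (log2 fold change -1.36, SE 0.23), Cd209b by 1.51 on the log2 scale, and Cd5l, a secreted macrophage protein, rose from 77.7, 126 and 117 to 273, 261 and 284. Cd209a rose at levels of 0.449 to 4.56.

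Of 16 platelet and megakaryocyte genes 11 rose and none fell, with a median log2 fold change of 1.22 (1.07 with 1 gene set at its bound). Pf4, platelet factor 4, was at 995, 447 and 902 normalised CPM in 4T1 and at 172, 178 and 210 in 67NR spleens (log2 fold change 2.07, SE 0.26, adjusted p = 4.23e-05). Ppbp was at 705, 272 and 721 against 128, 121 and 177, and Itga2b, the platelet integrin alpha IIb, at 89.0, 45.5 and 82.4 against 23.4, 27.6 and 26.5. Library 41 was again the lowest, and the count of called genes was 13 of 16 without it. It fell to 6 of 15 without library 40 and to 7 of 15 without library 42. Without 67NR library 16, and on library totals alone, it was 8 of 16. Of 12 stem and progenitor genes only Hoxa9 was called, higher at 3.22, 1.60 and 3.97 against 0.749, 0.673 and 1.18, where 11.3% of all genes rose. The count in this list was 3 without 4T1 library 41, 2 without 67NR library 16 or 17, and 0 among the genes with at least 10 counts in each spleen. Kit, the stem cell factor receptor, was at 20.4, 16.2 and 12.4 against 21.7, 16.2 and 12.0.

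Of 26 genes of globins and the red cell membrane 5 rose, with a median log2 fold change of 0.72, of 12 haem synthesis genes 4 rose, with a median of 0.34, and of 10 erythroid transcription factors 2 rose, with a median of 0.45 and none lower in the 3 lists. Slc4a1, the anion exchanger of the red cell, was at 925, 1052 and 975 normalised CPM in 4T1 and at 621, 393 and 319 in 67NR spleens, a log2 fold change of 1.15 (SE 0.25). Rhd was at 560, 609 and 626 against 289, 244 and 279, a log2 fold change of 1.15 (SE 0.15, adjusted p = 6.37e-05). Gata1, the leading factor of red cell genes, was at 114, 145 and 123 against 57.5, 54.3 and 53.0 (log2 fold change 1.21, SE 0.16). Klf1 was at 348, 384 and 319 against 261, 170 and 229 and was not called, nor were the globin genes, Hba-a1 being at 39672, 39338 and 38563 against 21818, 21004 and 20978 (log2 fold change 0.88, SE 0.24). In haem synthesis Slc25a38, the mitochondrial glycine carrier, was at 90.9, 112 and 89.0 against 42.9, 30.1 and 22.4 (log2 fold change 1.61, SE 0.23), and Alas2, the rate-limiting enzyme, at 49.6, 46.6 and 100 against 13.5, 12.1 and 15.3. Alas2 ranged from 12.4 to 38.6 among the control spleens. The erythroid counts depended on the scaling and on single libraries. On library totals alone 1 of 26, 2 of 12 and 0 of 10 genes were called, and the median of haem synthesis was 0.00. The calls of Gata1 (0.87) and Rhd (0.80) were among those lost there. The count of 5 for globins and membrane was 8 without 67NR library 16 and 3 without 67NR library 18, and that of 2 for the transcription factors was 1 without 4T1 library 40 or 67NR library 17 or 18, and 3 without 67NR library 16.

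Promoters of Rhd and Slc25a38 are shown because each was the called gene with the smallest adjusted p in its list. The lists are those of globins and the red cell membrane and of haem synthesis, which GATA1 and KLF1 are known to drive. That of Rhd lies on the plus strand at chr4:134864286-134864535 and that of Slc25a38 on the plus strand at chr9:120110132-120110381, again with AGATAA and CACCC in capitals.
Rhd: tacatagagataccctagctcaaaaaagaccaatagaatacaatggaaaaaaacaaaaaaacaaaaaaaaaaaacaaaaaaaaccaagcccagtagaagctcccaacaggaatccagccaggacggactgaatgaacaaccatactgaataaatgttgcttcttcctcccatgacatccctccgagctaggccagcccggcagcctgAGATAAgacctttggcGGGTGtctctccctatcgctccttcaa
Slc25a38: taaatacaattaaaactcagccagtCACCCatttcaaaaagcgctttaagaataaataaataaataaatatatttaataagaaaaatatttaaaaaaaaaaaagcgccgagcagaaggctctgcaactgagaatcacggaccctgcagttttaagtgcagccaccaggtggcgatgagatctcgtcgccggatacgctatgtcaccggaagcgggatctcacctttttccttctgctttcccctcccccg
The Rhd promoter held AGATAA 43 bases and a reverse CACCC 27 bases before the start, and that of Slc25a38 held CACCC 225 bases before it. Of 19 promoters of globin and membrane genes, 6 held AGATAA, 15 held CACCC and 5 held both, against 4.38% of all promoters with both. Of 9 haem synthesis promoters, 1 held AGATAA and 5 held CACCC, and of 8 promoters of erythroid factors, 1 held AGATAA and 8 held CACCC.

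Of 19 DNA replication genes 9 rose and of 22 mitosis genes 10 rose, with none lower and median log2 fold changes of 0.63 and 0.80. Cdk1, the mitotic kinase, was at 376, 274 and 396 normalised CPM in 4T1 and at 67.4, 51.6 and 66.8 in 67NR spleens (log2 fold change 2.49, SE 0.29, adjusted p = 2.72e-05). Ccne1, cyclin E1, was at 134, 144 and 159 against 61.6, 38.8 and 37.9, and Cdc6, which licenses replication origins, at 124, 117 and 130 against 53.6, 42.0 and 48.3. Mki67, the proliferation antigen, was not called, at 601, 615 and 633 against 640, 551 and 711. On library totals alone the counts were 6 of 19 and 3 of 22.

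Of 20 B cell genes 10 fell and none rose, with a median log2 fold change of -0.92. Ms4a1, the CD20 gene, fell from 343, 351 and 324 to 90.3, 121 and 76.3 normalised CPM (log2 fold change -1.82, SE 0.19, adjusted p = 1.17e-05). Cr2, the complement receptor of mature follicular and marginal zone B cells, fell from 668, 814 and 759 to 152, 266 and 159 (-1.96, SE 0.23). Ralgps2 fell by 2.16, Cd79b, a signalling chain of the B cell receptor, by 1.85 and Fcer2a, the CD23 gene, by 1.61 on the log2 scale. In all of these, library 41 was the highest of the 4T1 spleens. Ighm and Pax5 were at 1740, 2227 and 1695 against 2658, 2386 and 2422 and at 79.1, 125 and 90.1 against 148, 134 and 116, and were not called. Cd79a and Vpreb3 were not called either, with log2 fold changes of 0.67 and 0.46. Of 15 plasma cell and immunoglobulin constant genes, 3 fell and 1 rose, with a median of -0.68, against 11.4% and 11.3% of all genes. Igha, the IgA constant region, fell from 142, 124 and 138 to 25.7, 34.6 and 47.7 (-1.90, SE 0.20), Iglc1 fell by 1.26, and Tnfrsf17 fell at 6.55 or less. Ighg1, the IgG1 constant region, was at 38.6, 27.4 and 74.2 against 25.5, 17.3 and 13.9 (log2 fold change 1.30, SE 0.37), a call that was lost without 4T1 library 42, at 0.81, and on library totals alone, at 0.95. On library totals alone 7 of the 15 genes fell and none rose.

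Of 22 T cell genes 6 fell and none rose, with a median log2 fold change of -0.78. The largest increase in the list was 0.99998, just under the fold of 2. In some alternatives 1 of the 22 genes rose. These were the fits without 4T1 library 40, without 67NR library 16 or 18, with no count filter, with thinned counts, and without genes that follow the pancreas sum. Il7r, the receptor of the survival factor IL-7, fell from 171, 245 and 179 to 37.3, 53.2 and 35.2 normalised CPM (log2 fold change -2.24, SE 0.30, adjusted p = 7.84e-05). Trbc1, a T cell receptor constant gene, fell by 1.35, Cd3g by 1.25 and Trac by 1.21 on the log2 scale. Cd8a, at 16.9, 14.6 and 18.8 against 18.5, 18.4 and 19.8, and Cd4, at 15.5, 24.5 and 17.7 against 13.9, 9.88 and 9.82, were not called. On library totals alone the B and T cell counts were 13 of 20 and 12 of 22. Among 9 genes of regulatory T cells and checkpoints, Il2ra alone was called, with a log2 fold change of -1.39 and a list median of -0.32. That count is close to the 11.4% of all genes that fell. Foxp3 was at 0.536 to 2.38 in all 6 spleens. Of 17 cytotoxic and NK cell genes 3 rose and 2 fell, with a median of -0.50, against 11.3% and 11.4% of all genes. The number that fell was 4 without 4T1 library 41, 1 without 4T1 library 42 or 67NR library 17 or 18, and 5 on library totals alone. Nkg7, a protein of cytotoxic granules, rose from 8.43, 13.2 and 14.1 to 68.9, 40.2 and 74.4 (log2 fold change 2.36, SE 0.24), and Gzmb and Klrg1 rose at levels of at most 8.04. Ncr1, the NK cell receptor NKp46, fell from 28.6, 48.9 and 36.3 to 15.5, 19.2 and 9.54 (-1.36, SE 0.27), and Klrk1 fell by 1.03, a call lost without 4T1 library 42 or 67NR library 17 or 18.

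Of 12 dendritic cell genes 1 rose, the adhesion gene Esam (log2 fold change 1.21, SE 0.19), and none fell, with a median of -0.50. Neither count exceeds the share over all genes, 11.3% higher and 11.4% lower. On library totals alone 4 of the 12 fell and none rose, Esam being at 0.87. Of 10 MHC class II genes 1 rose and 2 fell, with a median of -0.41, against 11.3% and 11.4% of all genes. H2-Aa, an alpha chain, was at 1602, 2443 and 1647 normalised CPM in 4T1 and at 939, 997 and 734 in 67NR spleens, but ranged from 1049 to 2244 among the control spleens, and its call was lost without 4T1 library 41, at 0.87, without 67NR library 18, among genes with at least 10 counts in each spleen and on library totals alone, at 0.75. H2-Ob fell by 1.30 and H2-DMb2 by 1.11 on the log2 scale, the latter call being lost without 4T1 library 40 or 42 or 67NR library 18. Of 21 interferon-stimulated genes 1 rose and 3 fell, with a median of -0.12, beside the same shares of 11.3% and 11.4%. Ifi44 fell from 70.4, 60.8 and 66.2 to 16.3, 27.9 and 18.5 (-1.65, SE 0.21), Gbp3 fell by 1.17 on the log2 scale, Mx2 fell at levels of at most 4.13, and Oas1a rose at levels of 0.562 to 6.09.

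Of 18 genes of the splenic stroma 4 fell and none rose, with a median log2 fold change of -0.56. Cxcl13, the chemokine that draws B cells into follicles, fell from 201, 213 and 245 to 102, 112 and 80.0 normalised CPM (log2 fold change -1.16, SE 0.19). Tlx1 fell from 46.6, 40.0 and 48.9 to 18.2, 26.3 and 12.7 (-1.24, SE 0.23), and Tcf21, another factor of the spleen's mesenchyme, by 1.13 and Pdgfrb by 1.02 on the log2 scale. The count was 2 without 4T1 library 42 and 7 on library totals alone. Collagens Col1a1 and Col3a1 were not called. Of 6 epithelial genes 1 was called, Epcam, lower at 1.06 to 1.61 against 2.36 to 3.82 with a list median of -0.55, a call lost without 4T1 library 41 or 42 or 67NR library 17 and in DESeq2. The summed epithelial level was 11.0 to 21.2 in 4T1 and 17.0 to 21.8 in 67NR spleens, Krt5, Krt8, Krt18, Esrp1, Cldn4 and Wfdc2 having 10 or fewer counts over the 6 spleens. The 5 tested adipocyte genes had a median log2 fold change of 0.08, and the smallest adjusted p among them was 0.183, that of Cfd, at 8.58, 18.4 and 5.03 against 22.1, 24.0 and 10.2. Cfd was called lower without 4T1 library 41 (-1.46), without 67NR library 18 (-1.12) and on library totals alone (-1.14).

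**Figure D4:**
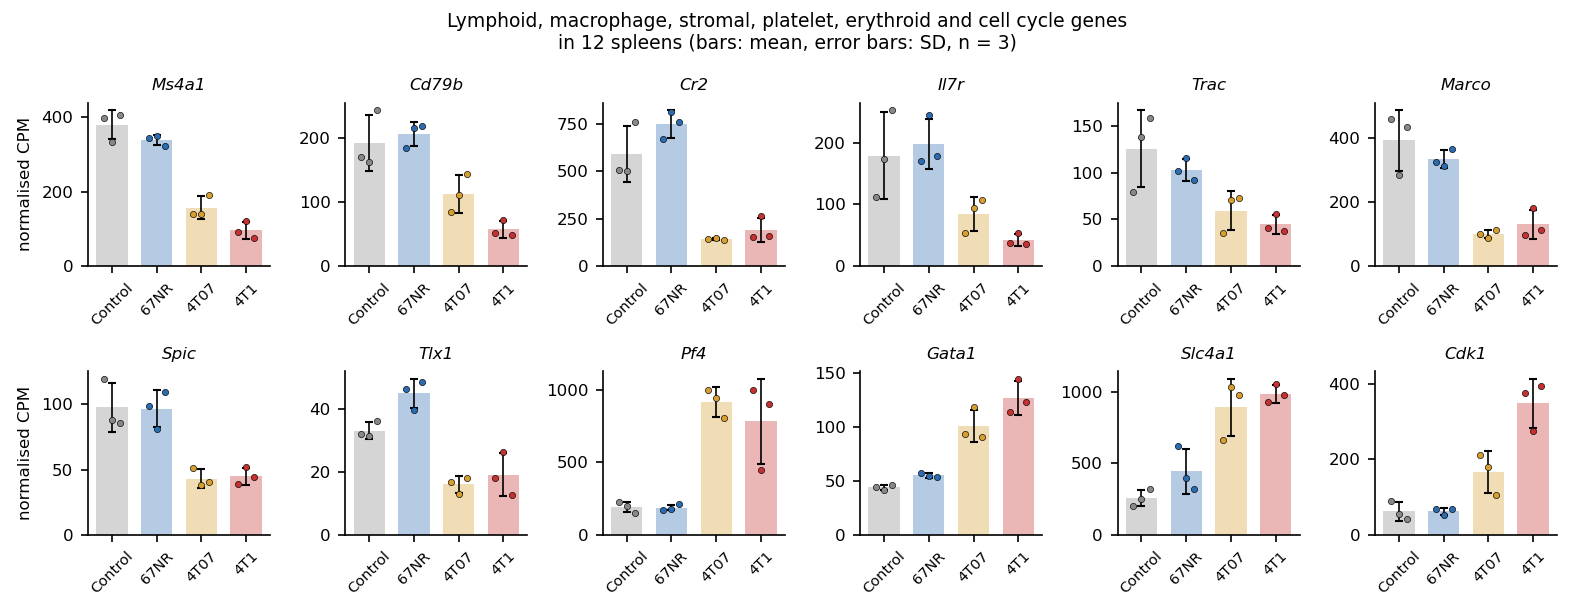
Normalised CPM (vertical, linear axis from 0) of 12 lymphoid, macrophage, stromal, platelet, erythroid and cell cycle genes in control, 67NR, 4T07 and 4T1 spleens, with points for libraries, bars for means and error bars for SD (n = 3). Ms4a1, Cd79b, Cr2, Il7r, Trac, Marco, Spic and Tlx1 are lower in all 3 4T1 spleens than in every 67NR spleen, and Pf4, Gata1, Slc4a1 and Cdk1 are higher.

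The genes with the largest changes among all genes with a mean of at least 5 normalised CPM were, on the rising side, those of the pancreatic genes Ctrb1, Reg1, Try4, Sycn, Pnlip, Ctrc, Cel and Pnliprp2. Without library 42, 5 of the 8 largest increases were of pancreatic genes and the others were Stfa2, Cstdc5 and Ctsg. Try4, Pnlip, Ctrc and Cel had 1 to 3 counts over the 67NR spleens, and their count ratios were 2361 (95% exact interval 423 to 93325), 1392 (476 to 6753), 1491 (267 to 58928) and 1036 (354 to 5027). Of their 4T1 counts, 1542 of 1787, 2757 of 3160, 997 of 1128 and 2011 of 2352 came from library 42, and without it the ratios were 487 (86.6 to 19311), 267 (90.7 to 1300), 260 (45.9 to 10362) and 226 (76.7 to 1101). Outside the genes that follow the pancreas sum, a list chosen after the values were seen gave Cstdc6, Stfa2, Ctsg, Cstdc5, Stfa3, Prtn3, Lipg and Ankrd22. Lipg, endothelial lipase, had 319 counts over the 4T1 and 2 over the 67NR spleens, a ratio of 211 (95% exact interval 57.9 to 1748). Ankrd22 was at 31.9, 10.4 and 25.7 against 0.187, 0 and 0.589. On the falling side the rule gave 7 Gm-numbered symbols, which name predicted or non-coding loci, and Srpk3, a serine and arginine protein kinase gene, which fell from 148, 177 and 128 to 11.8, 26.9 and 11.4 (log2 fold change -3.18, SE 0.36, adjusted p = 2.21e-05). Gm25008 had the second largest decrease among them by log2 fold change, at -4.54, from 140, 123 and 81.1 to 7.50, 5.32 and 1.85, but it ranged from 9.37 to 88.2 among the control spleens. Gm11737, with a fitted -4.71, was at or under 3 counts in every 4T1 spleen and by that limit at least 12.5-fold lower. Gm44891 (-3.51), Gm12568 (-3.44), Gm43287 (-3.20), Gm37728 (-3.11) and Gm48334 were the others. Among falling genes with other symbols, also picked after the values were seen, were Piezo2 (-2.88), a mechanically gated channel, Rpl21-ps6 (-2.73), Ryr3 (-2.66), AC154200.1 (-2.59), Nlrc3 (-2.58), Zfp318 (-2.55), a factor that B cells need to make IgD, and Olfr164 (-2.55). Zfp318 fell from 254, 292 and 335 to 38.6, 69.2 and 42.4.

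The study selected a signature of 9 genes in scaffolds of this series to separate 4T1 mice, so its values in scaffolds are not independent evidence of its direction. In the spleens 2 of the 9 genes rose and 1 fell, with a median log2 fold change of 0.04, against 11.3% and 11.4% of all genes. Ifitm1, an interferon-induced membrane protein, was at 550, 345 and 416 normalised CPM in 4T1 and at 29.4, 39.1 and 25.0 in 67NR spleens, a log2 fold change of 3.81 (SE 0.27, adjusted p = 3.37e-07), with 55.8 to 110 in the 4T07 and 58.7 to 70.6 in the control spleens. Fhl1, a LIM domain protein, was at 45.8, 21.0 and 34.4 against 13.5, 15.3 and 17.3 (1.14, SE 0.24), a call lost without 4T1 library 40, at 0.85, and on library totals alone, at 0.79. Slc1a3, a glutamate transporter, was at 6.70, 6.39 and 8.74 against 14.2, 11.4 and 18.7 (-1.02, SE 0.24), a call lost without 4T1 library 40 or 41 or 67NR library 18. Dhx9 (0.80) and Dusp12 (0.70) passed the adjusted p but not the fold. Ndufs1 (-0.08), Pja2 (0.04), Soga1 (-0.60) and Spon2 (-0.57) did not pass.

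The 67NR spleens were set against those of healthy control mice to show where the reference group lies. Both comparisons share the 67NR spleens, so they are given side by side and no relation between them was computed. In that contrast 479 genes were called (2.59%), 276 higher and 203 lower in 67NR. The count rested on single libraries, at 50 without control library 8, 142 without 67NR library 16, 248 without control library 7, 250 without 67NR library 18 and 1077 without control library 9. The 23 granule genes had log2 fold changes of -1.28 to 0.66 of 67NR over control, from Itgb2l to Ngp, and the smallest adjusted p among them was 0.298. Csf3r, at 2.81, 2.86 and 3.21 normalised CPM in control spleens, was higher in 67NR (log2 fold change 1.27), while Wfdc17 (-1.49), Cstb (-1.47), Retnlg (-1.35), Fpr1 (-1.18) and Ifitm1 (-1.03) were lower. Of globins and membrane 7 of 26 rose, of haem synthesis 4 of 12, of erythroid factors 5 of 10, of DNA replication 4 of 19 and of mitosis 3 of 22, all against the control spleens. Klf1 was at 92.0, 75.0 and 118 in control spleens and rose in 67NR, with a log2 fold change of 1.21. Ribosomal protein genes took 3.78% to 5.36% of counts in 67NR, 5.39% to 6.44% in 4T1 and 4.92% to 8.07% in control spleens, and mitochondrial genes 6.56% to 8.08%, 6.15% to 6.83% and 8.40% to 10.0%. Their part in these results was not tested.

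The change from 67NR to 4T1 was compared between the spleen and the lung by a test of the difference. It differed in 3808 of 22246 genes (17.1%), with 1895 larger and 1913 smaller in the spleen, where larger means that the log2 ratio of 4T1 to 67NR was higher in the spleen. Of the 8 genes of the primary granule list 0 were called different between the tissues (edgeR, 1 at an unadjusted p under 0.05, Serpinb1a). The fitted median log2 fold changes were 6.06 in spleens and 5.59 in lungs. Ctsg was at 15.1, 9.98 and 13.4 normalised CPM in the 4T1 lungs and at 0.356, 0 and 0 in the 67NR lungs. With 67NR levels this low, the absence of a call does not show an equal change. Of 15 secondary and tertiary granule genes 7 had a larger change in the spleen, among them Lcn2 and Ltf, and 2 a smaller one, Ngp and Mmp8. Lcn2 was at 254, 293 and 111 in 4T1 and already at 37.5, 41.9 and 37.2 in 67NR lungs, and its difference was 3.24 (SE 0.48, adjusted p = 6.12e-05). Mature neutrophil genes had a smaller change in the spleen in 5 of 18 cases and a larger one in 1. S100a8, at 12380, 13463 and 5936 against 84.5, 109 and 69.8 in lungs, differed by -1.79 (SE 0.43). Pf4, at 91.0, 67.9 and 57.1 against 48.7, 68.4 and 69.9 in lungs, differed by 1.87 (SE 0.35), with 5 of 16 platelet genes larger in the spleen. Cebpb, at 75.4, 81.1 and 77.6 against 68.3, 83.4 and 76.4 in lungs, differed by 2.00 (SE 0.27). Lymphocyte genes had a more negative change in the spleen for 8 of 20 B cell and 7 of 22 T cell genes. Il7r, at 87.1, 97.3 and 83.6 in 4T1 and 88.4, 61.2 and 69.5 in 67NR lungs, differed by -2.53 (SE 0.36, adjusted p = 4.21e-05), and Cr2 by -1.74 (SE 0.29).

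The same test against the scaffold found a difference in 3126 of 22062 genes (14.2%), 1670 larger and 1456 smaller in the spleen. Mature neutrophil genes had a larger change in the spleen in 17 of 18 cases, with median log2 fold changes of 3.02 in spleens and 0.44 in scaffolds. S100a8 was at 1616, 1021 and 1075 normalised CPM in the 4T1 and at 579, 578 and 499 in the 67NR scaffolds, and differed by 3.97 (SE 0.72, adjusted p = 6.88e-04). Il1b, at 182, 365 and 228 against 382, 375 and 380 in scaffolds, differed by 3.19 (SE 0.66). The stefin list had a larger change in the spleen in 9 of 10 cases, and Wfdc17, at 201, 158 and 237 against 199, 371 and 213 in scaffolds, by 6.48 (SE 0.42, adjusted p = 1.63e-09). Of the 8 genes of the primary granule list 2 had a larger change in the spleen, the protease inhibitor gene Serpinb1a and Cst7. The list medians were 6.06 in spleens and 4.28 in scaffolds. Ctsg was at 17.1, 9.82 and 4.13 against 0.190, 0.989 and 0.165 in scaffolds, a difference of 3.30 (SE 1.63, adjusted p = 0.192) that was not called. Of the receptor list, Csf3r, Csf2rb and Csf2rb2 had a larger and Il34 a smaller change in the spleen. Of the 9 signature genes, Ifitm1, Fhl1, Dhx9 and Spon2 had a larger and Slc1a3 and Soga1 a smaller change in the spleen. The signature was selected in scaffolds of this series, so these differences are not independent of that selection. Ifitm1 was at 51.6, 88.2 and 59.8 in 4T1 and 15.2, 21.8 and 16.9 in 67NR scaffolds, with a difference of 1.94 (SE 0.41, adjusted p = 0.00238). The fit with scaffolds used 11 of them, a control scaffold being left out.

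**Figure D5:**
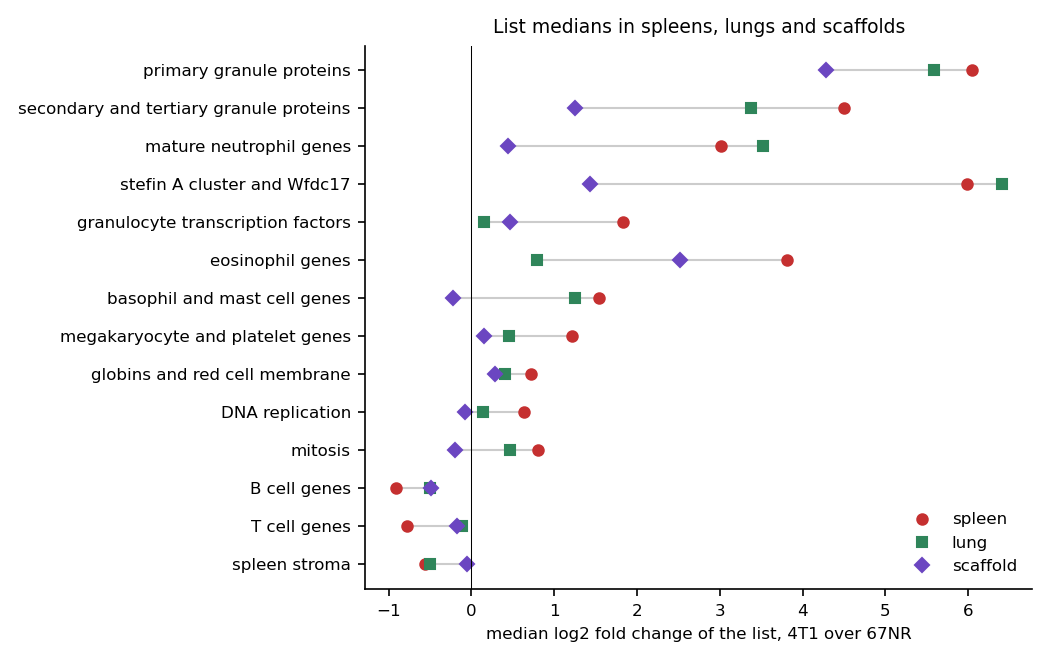
Median log2 fold change of 4T1 over 67NR (horizontal) for 14 gene lists (rows) in spleens (red circles), lungs (green squares) and scaffolds (purple diamonds). The primary granule list has medians above 4 in every tissue, while the mature neutrophil and stefin lists reach 0.44 and 1.43 in scaffolds against 3.02 and 5.99 in spleens. All medians are of fitted values without bounds, and levels such as that of Ctsg were very low in 67NR lungs and scaffolds.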

How the data were processed

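Polyadenylated RNA of homogenised tissue was made into 3′ tag libraries (QuantSeq FWD with a UMI add-on) by the authors. The submitters' processing notes name Trim Galore 0.5.0, STAR 2.6.0 and featureCounts. The genome build, the annotation and whether UMIs were collapsed are not given in the sources used here. The authors deposited raw counts per gene and library, which were used as deposited. The table had 55487 lines, and lines that repeat a symbol (120) were summed to 55367 symbols. 1 column, a control scaffold, was not used.

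Genes with more than 10 counts over the 6 spleens were tested with edgeR 4.0.16 in R 4.3.3 (TMM factors, glmQLFit and glmQLFTest) on all 12 spleens with group as the only term, so the 4 groups share 1 estimate of the spread. The SE was the log2 fold change divided by the square root of F. Differences between tissues were contrasts in fits of 12 spleens with 12 lungs or 11 scaffolds, and levels of lungs and scaffolds are on the scale of those fits. The scripts were tested on simulated data. Alternatives were DESeq2 1.42.0, DESeq2 size factors, other count filters, only the groups compared, thinned counts, library sizes without abundant or globin and haem genes, and each library left out. Library totals alone, bounds and ratios without each 4T1 spleen, and the table without genes that follow the pancreas list, were added after the data were seen.

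Genes were named by rule. These are the 8 largest changes in each direction with a mean of at least 5 normalised CPM and no overlap of the lines, the 3 called members of each list with the smallest adjusted p, all members of 4 lists, and the 4 largest differences in each direction for each tissue. Other genes of the lists, the leading genes outside the pancreas and those without a Gm symbol were picked once their values were known. The members and the 32 lists were chosen with earlier results of these data known. Promoters are from RefSeq (GRCm38.p6), and no coordinates of the count table were used. Of 66 pairs of spleens, 0 held identical counts.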

Additional observations from a re-analysis of the deposited data

Results flagged for a closer look

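The change from 67NR to 4T1 differed between spleen and lung in 3808 genes and between spleen and scaffold in 3126 genes, by the test of the difference itself. The values below are spleen minus other tissue on the log2 scale, with positive values where the ratio of 4T1 to 67NR was higher in the spleen.

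Against the lung, the largest positive differences by the rule for named genes were those of Pla2g1b (7.92), Pnliprp1 (7.48), Cpb1 (6.96) and Lipg (6.96). The first 3 are enzymes of the exocrine pancreas, and their spleen levels were highest in 4T1 library 42, which had the highest pancreas sum. Without that library the difference of Pnliprp1 was 4.65 and no longer called, and the call was also lost without each of the 67NR lungs, at 7.23 to 7.74. Lipg, endothelial lipase, was at 36.6, 9.86 and 42.2 normalised CPM in the 4T1 spleens, against 26.0, 26.8 and 17.5 in 4T1 and 18.0, 16.9 and 13.5 in 67NR lungs. The largest negative differences were those of Gria1 (-5.44), Exph5 (-5.49), Slc6a2 (-5.61) and Gm43507 (-6.62). All 4 had no counts in any 4T1 spleen and at most 3.27 normalised CPM in a 67NR spleen, so these fitted values depend on the prior count and give no fold.

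Against the scaffold, the largest positive differences were those of Lipg (8.05), Wfdc17 (6.48), Rnase1 (6.41) and Stfa3 (6.39). Rnase1, a pancreatic ribonuclease, was at 20.1, 23.0 and 307 in the 4T1 spleens, and without 4T1 library 42 its difference was 3.97 and no longer called. The call of Rnase1 was lost in 8 of 16 alternatives, the others being those without 67NR spleen 16 or 18, without 4T1 scaffold 35 or 36 or without any of the 67NR scaffolds, at 5.97 to 6.57. The largest negative ones were those of Gm14427 (-3.16), Htr2b (-3.26), Cd96 (-3.36) and Mmrn1 (-3.92). Cd96, a receptor of T and NK cells, was at 4.23, 5.29 and 4.19 in 4T1 and 17.2, 27.7 and 22.1 in 67NR spleens, and at 4.89, 4.73 and 5.82 against 3.04, 1.98 and 2.31 in scaffolds. Mmrn1 was at 21.5 in 1 of the 4T1 scaffolds and at 3.16 and 0.188 in the others, and without 4T1 scaffold library 34 its difference was -1.63 and no longer called. The call of Mmrn1 was also lost without 67NR scaffold 12, at -3.46. The part of the pancreas transcripts in these differences was not tested.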

How the results depend on the processing

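No paired analysis was possible because the labels number the libraries across the series and the groups share no replicate number. The count of called genes between 4T1 and 67NR spleens was 2097 with at least 10 counts in each spleen, where fewer genes are tested, 3728 in DESeq2 and 3299 to 4444 when a library was left out. Between 67NR and control spleens it was 50 to 1077 when a library was left out. The count of differences from the lung was 2335 with at least 10 counts in each library, and 3026 to 4243 when a library was left out, and that from the scaffold was 2479 to 3426. Library totals alone gave 4977, 577, 4285 and 4172 genes in these comparisons, with 24.2% of called genes higher in 4T1 spleens. Of 130 called among 152 named genes, 110 kept call and direction in each of the 16 alternatives that tested them, 20 lost the call in at least 1 and 0 changed direction. 6 genes that were not called changed sign. With at least 10 counts in each spleen Fabp4 was at -0.012 and Pja2 at -0.060, with thinned counts Pja2 was at -0.029, and with no filter Cd34 was at 0.00067. On library totals Cdh1 was at -0.23, Fabp4 at -0.26 and Pja2 at -0.31. With a library left out Cd34 ranged from -0.12 to 0.11, Tnfrsf18 from -0.38 to 0.058, Cdh1 from -0.10 to 0.41, Fabp4 from -0.11 to 0.20, Adipoq from -0.98 to 0.0025 and Pja2 from -0.0090 to 0.090. The cause was not tested. Depth limits genes near 3 counts per library, such as Arg1 and Nos2.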

Other observations

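Among the genes tested, symbols numbered with Gm name predicted or non-coding loci. Of 3239 such symbols tested 698 fell and 235 rose, with a median log2 fold change of -0.51, and of 14277 symbols with other names 1242 fell and 1769 rose, with a median of 0.04. Rik symbols lay between these, with 169 of 961 falling, 91 rising and a median of -0.23. The Gm symbols took 3.00% to 3.55% of counts in the 67NR, 1.86% to 2.42% in the 4T1 and 2.76% to 4.13% in the control spleens, so the 2 lines did not overlap. The difference between symbol classes was not tested.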
